A study of Mus musculus with 10 samples.

Results

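The control hippocampus of aged mice is described here: the 5 arrays whose label gives the control diet, of 10 arrays in the series. Each array held hippocampal RNA of 1 male C57BL/6 mouse, an inbred laboratory strain, killed at 30 months of age, which is old for this strain. The arrays of the other diet group were not used and diets were not compared. Total RNA was extracted with Trizol, copied into biotin-labelled cRNA and hybridised to an Affymetrix mouse array. The labels name the tissue as hippocampus with no subregion, and they give no composition of the control diet.

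The array reports a signal for each of 12422 probe sets, groups of short probes that together stand for a transcript, and the brightest probe set of each symbol gave 8251 genes. Signals are given as log2 values, so that a difference of 1 is a doubling, as mean ± SD over the 5 mice or mouse by mouse from 1 to 5. A signal percentile is the rank of a mean among all 12422 probe sets. Brightness also depends on the probes of a set, so the order of probe sets is not the order of transcript amounts, and no gene's level was tested against another's. With 1 group there was no test between groups. Each mouse had 1 array, so spread between animals and spread from the assay cannot be told apart, and 5 arrays limit the precision of every SD.

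The hippocampus is a folded sheet of cortex that the brain uses to form memories of places and events. Its granule cells in the dentate gyrus signal to CA3 pyramidal neurons, which signal to CA1, with glutamate as the transmitter at each step. Interneurons that release GABA hold this circuit in check, and astrocytes, oligodendrocytes, microglia and vessels surround it. The choroid plexus, the meninges and blood lie against or inside the tissue and are easily taken with it at dissection.

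A level was needed above which a signal could be read as more than the brightness of absent transcripts. It was taken as the 90th percentile of 32 measured genes of organs outside the brain, such as skin, testis, liver and heart, and it lay at 8.70 on the log2 scale, or 415 as a linear signal. Those 32 genes ran from 3.17 to 9.12 with a median of 6.83, and the brightest were Lor of the skin barrier at 9.12 ± 0.22 and Tnp1 of sperm chromatin at 9.01 ± 0.28. Of all 8251 genes, 42.7% reached this reference level. Of 530 measured genes in 45 lists of cell types, regions and pathways, 313 reached it, or 59.1%. A gene under the level may still be expressed, since a dim set can have weak probes.

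**Figure D1:**
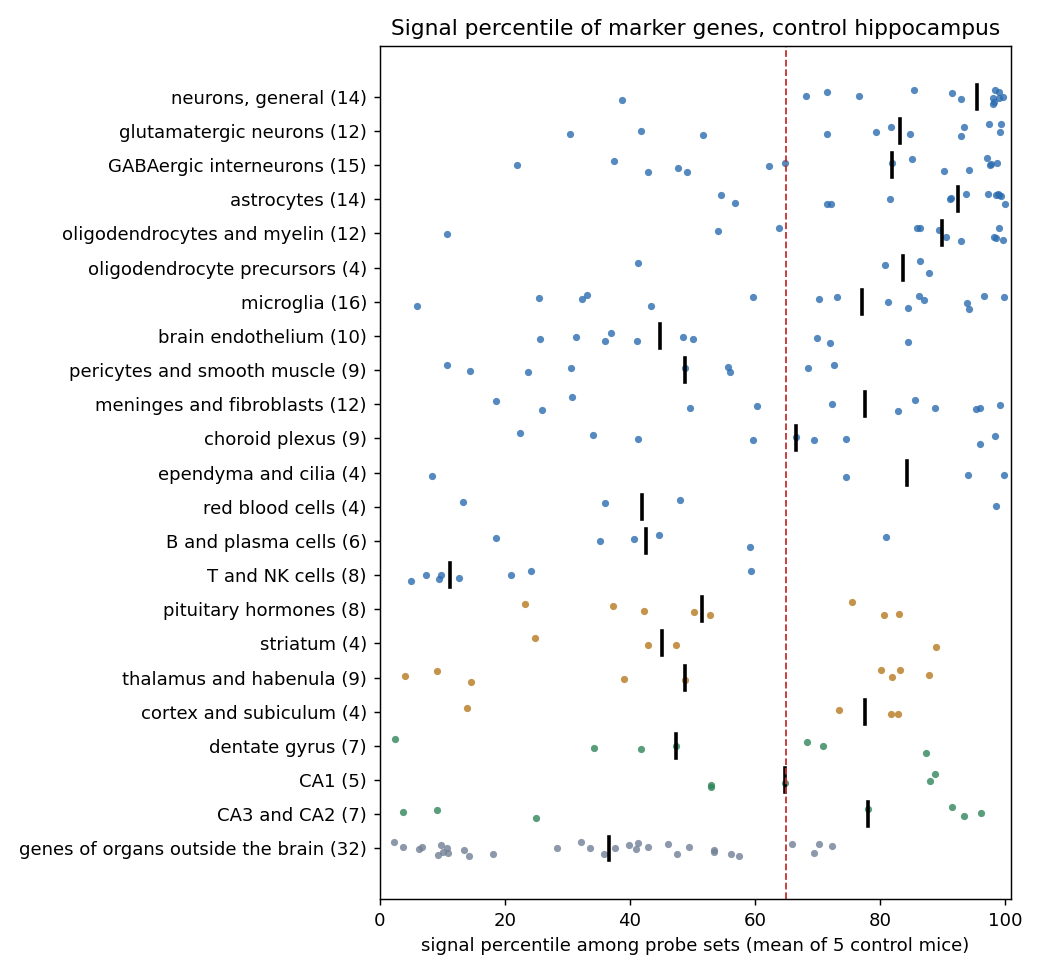
Signal percentile of each marker gene (points) by list, with the list median (black bar), the number of measured genes in brackets and the reference level at percentile 64.9 (dashed line). Blue marks cell types, brown neighbouring tissue, green hippocampal subfields and grey the genes of other organs. General neuronal and astrocyte markers have medians of 95.5 and 92.6, T and NK cell markers 11.3.

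The brightest genes of the old hippocampus joined the protein synthesis machinery with transcripts of neurons and astrocytes. Rpl41, a protein of the large ribosomal subunit, led at 14.75 ± 0.19. Eef1a1, which brings aminoacyl-tRNA to the ribosome, lay at 14.45 ± 0.11 and Apoe, the lipid carrier that astrocytes secrete, at 14.39 ± 0.16. App, the precursor of the amyloid beta peptide, lay at 14.29 ± 0.18 and Prnp, the prion protein, at 14.16 ± 0.38. Cst3, a secreted inhibitor of cysteine proteases, reached 14.27 ± 0.18, and Fth1, the heavy chain of the iron store ferritin, 14.20 ± 0.17. Ckb, the brain creatine kinase that buffers ATP, reached 14.19 ± 0.38, and Dnm1, the GTPase that cuts synaptic vesicles from the membrane, 14.06 ± 0.34.

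Neuronal markers were bright, which fits the tissue on the label. Of 14 general neuronal markers, 13 reached the reference level, and the list's median SD was 0.26. An SD percentile is the rank of an SD among probe sets of like brightness. Its median over the list was 63.9, so these markers were not more even than others as bright. Tubb3, a tubulin of neurons, lay at 12.92 ± 0.09 and Eno2, the neuronal enolase, at 12.32 ± 0.09, with values in the 5 mice from 12.80 to 13.03 and from 12.20 to 12.42. Snap25, a membrane protein of the release machinery, read 14.14, 14.20, 13.33, 13.46 and 13.97 in mice 1 to 5, with the lowest values in mice 3 and 4. Nefm, a neurofilament subunit, was the marker under the level at 6.98 ± 1.45, and read 7.34, 8.78, 4.76, 7.17 and 6.86. Camk2a, described below, had the largest SD of the list at 2.01. In a whole-tissue extract, fewer cells of a type and less RNA per cell cannot be told apart.

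Among the listed glutamatergic markers, Gria2 and Gria1, subunits of the AMPA receptor that passes most fast excitation, lay at 13.25 ± 0.23 and 11.95 ± 0.27. The calmodulin-dependent kinase subunit Camk2b lay at 12.98 ± 0.20, and Neurod2, Neurod6 and Tbr1, transcription factors of forebrain excitatory neurons, at 9.97 ± 0.49, 9.57 ± 0.38 and 9.72 ± 0.32. Of the 12 measured glutamatergic markers, 9 reached the reference level. The NMDA receptor subunits Grin2a and Grin2b stayed under it, at 6.35 ± 0.83 and 7.21 ± 0.64. The largest SDs of the list were those of Camk2a at 2.01, Grin2a at 0.83 and Nrgn at 0.76.

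Interneuron markers were bright for the enzyme and transporter of GABA and for several peptides. Of 15 measured markers, 8 reached the reference level, beside 42.7% of all genes. Gad1, which makes GABA, lay at 12.09 ± 0.22 and Slc32a1, which loads it into vesicles, at 11.12 ± 0.21. Pvalb, the calcium buffer of fast-spiking interneurons, was the steadiest of the list at 11.82 ± 0.09, with 11.70, 11.95, 11.78, 11.82 and 11.86 in mice 1 to 5. The peptide Sst read 12.35, 12.03, 11.36, 11.65 and 12.53 and the peptide Cck, which some pyramidal neurons make too, read 13.26, 13.15, 11.81, 12.12 and 13.01. Mouse 3 was the lowest for both and mice 1 and 5 were among the 3 highest for both. Gad2, the other GABA enzyme, lay at 7.63 ± 0.48, Vip at 6.89 ± 1.03 and Dlx1 at 5.65 ± 0.89, all under the reference level.

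Markers of the hippocampal subfields were found at every brightness. CA3 and CA2 markers were led by Rgs14, a signalling regulator of CA2 neurons that limits plasticity, at 11.56 ± 0.28, and 4 of 7 reached the reference level. Of 5 CA1 markers, 2 did, with Wfs1, an endoplasmic reticulum protein of CA1 pyramidal cells, at 10.28 ± 0.26. Of 7 dentate markers, 3 did. Calb1, the calcium buffer of granule cells, lay at 10.21 ± 0.25, Pdyn, the dynorphin precursor of mossy fibres, at 8.89 ± 0.29, and the granule cell transcription factor Prox1 under the level at 6.64 ± 0.55. Genes used as markers of neighbouring regions reached it too. The share of all genes at the level was 42.7%, and counts near that share do not show that a subfield or region was present. Fezf2 and Nr4a2, of deep cortex and subiculum, lay at 9.81 ± 0.21 and 9.19 ± 0.42, and 3 of those 4 genes reached the level. Of 9 genes of thalamus and habenula, 4 reached it, led by Prkcd, a protein kinase of thalamic relay cells, at 10.25 ± 0.19. Of 8 pituitary genes, 3 did, and of those the growth hormone gene Gh read 9.15, 9.31, 9.94, 9.25 and 8.96 in mice 1 to 5, while Prl and Pomc lay under it at 7.94 ± 0.62 and 7.25 ± 1.12.

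Astrocyte markers had a median SD of 0.21 but held a few uneven genes. Of 14 markers, 12 reached the reference level. Aldoc, a glycolytic enzyme enriched in astrocytes, lay at 13.21 ± 0.19, Sparcl1, a secreted protein that promotes synapses, at 12.82 ± 0.12, Clu, a secreted chaperone, at 12.55 ± 0.18 and Gja1, the gap junction protein connexin 43, at 11.87 ± 0.15. Glul, which turns glutamate into glutamine, lay at 10.65 ± 0.14, but its other probe set was less even at 10.01 ± 0.64, highest in mouse 4. Gfap, the filament protein that rises in reactive astrocytes, read 10.32, 10.95, 11.89, 11.96 and 9.95 in mice 1 to 5. Mice 3 and 4 were the highest and mouse 5 the lowest, a 4.02-fold range, and a second Gfap probe set put the same pair highest. The water channel Aqp4 was also highest in mice 3 and 4, at 10.21, 10.44, 10.97, 11.17 and 10.60, with a smaller range. The glutamate transporter Slc1a2 lay under the reference level at 8.20 ± 0.83.

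Myelin genes were bright, with a median SD of 0.25 and a median SD percentile of 47.2. Mbp and Mobp, basic proteins that compact the sheath, lay at 13.51 ± 0.13 and 12.88 ± 0.09, Mal, a raft protein of myelin, at 10.90 ± 0.16, Cldn11, which seals its layers, at 10.54 ± 0.20, and Mag, an adhesion protein of its inner face, at 10.07 ± 0.29. Of 12 measured genes, 9 reached the reference level and none had an SD of 1 or more. Cnp, an enzyme of uncompacted myelin, stood against the rest at 4.55 ± 0.59, and it was measured by a single probe set. Of the 4 measured precursor genes, 3 reached the level, with the receptor Pdgfra at 9.66 ± 0.19.

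Microglial genes were measurable, with 10 of 16 at or above the reference level, beside 42.7% of all genes. Ctss, a lysosomal protease of microglia, lay at 11.66 ± 0.19, the growth factor receptor Csf1r, on which microglia depend, at 10.10 ± 0.26 and the fractalkine receptor Cx3cr1 at 9.69 ± 0.42. The subunits of C1q, the first component of complement, were bright, and C1qa read 10.67, 10.73, 11.44, 11.65 and 10.77 in mice 1 to 5. C1qc read 10.82, 10.89, 11.56, 11.47 and 10.75. C1qb read 9.92, 9.97, 10.33, 10.29 and 10.40. Mice 3 and 4 were the highest pair for C1qa and C1qc, while mouse 5 was the highest for C1qb. Tyrobp, an adaptor of microglial receptors, had its highest value in mouse 5 and read 9.20, 9.20, 8.95, 8.49 and 9.99. Lymphocyte genes gave little signal: none of 8 T and NK cell genes reached the reference level, and Cd3e, Cd3g and Cd8a lay at 5.57 ± 0.49, 3.80 ± 0.69 and 4.16 ± 1.02. Of 6 B and plasma cell genes only Ighm, the immunoglobulin heavy chain mu, reached it, at 9.67 ± 0.63. That is the brightest of many probe sets under this symbol, and the others all lay under the level, at 7.52 or less.

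Fewer vessel markers reached the reference level, which 42.7% of all genes did. Of 10 endothelial genes, 3 did: Eng, a receptor of the TGF-beta family, at 9.93 ± 0.60, the glucose transporter Slc2a1 at 9.10 ± 0.52 and the tight junction protein Cldn5 at 8.99 ± 0.22. Of 9 genes of pericytes and smooth muscle, Vtn at 9.14 ± 0.66 and Rgs5 at 8.90 ± 0.40 did. Single genes of the surroundings were bright. Ttr, the thyroxine carrier that the choroid plexus secretes, lay at 12.53 ± 0.89, Ptgds, the prostaglandin D synthase of meninges and oligodendrocytes, at 12.98 ± 1.60, and Hba-a1, an alpha globin of red blood cells, at 12.60 ± 0.95. Their spread over the 5 mice was large and is described with the differences between mice.

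Among synaptic genes, 13 of 15 genes of vesicles and their fusion reached the reference level. Vamp2, the vesicle SNARE, lay at 13.07 ± 0.20, Syt1, the calcium sensor of release, at 12.44 ± 0.14, Nsf, which pulls used SNAREs apart, at 11.92 ± 0.41 and Cplx1, a clamp on fusion, at 11.55 ± 0.38. Syp, a vesicle membrane protein, read 10.68, 11.20, 10.79, 10.95 and 9.77, with mouse 5 the lowest. Of 11 glutamate receptor subunits, 5 reached the level, beside 42.7% of all genes. Gria3 read 9.15, 9.44, 7.65, 8.09 and 9.42, low in mice 3 and 4, and the kainate receptor subunit Grik5 read 9.26, 10.15, 10.12, 10.35 and 8.65, low in mice 1 and 5. Of 8 GABA receptor subunits, 2 reached it, Gabbr1 of the metabotropic receptor at 12.16 ± 0.29 and Gabrb1 at 9.46 ± 0.69.

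Calcium signalling genes reached the reference level in 11 of 14 cases. Hpca, the calcium sensor hippocalcin, named after the hippocampus, lay at 13.15 ± 0.40. Ppp3r1, the regulatory subunit of the phosphatase calcineurin, was even at 13.08 ± 0.07, with 13.05, 13.01, 13.05, 13.16 and 13.14 in mice 1 to 5. Its catalytic partner Ppp3ca was not, and read 12.92, 12.99, 11.56, 11.76 and 12.70. Mice 3 and 4 were about 1 log2 unit under the others for Ppp3ca and no lower than the others for Ppp3r1. Ryr2, a calcium release channel, was also lowest in mice 3 and 4, at 9.88, 9.91, 9.21, 9.11 and 10.04.

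Energy metabolism and protein turnover were carried by bright genes. Their spread was near that of other genes of like brightness, and smaller for glycolysis. The median SD percentile was 33.7 for glycolysis, 45.9 for oxidative phosphorylation, 50.0 for antioxidant enzymes and 56.8 for the proteasome. All 13 glycolysis genes reached the reference level, with a median signal percentile of 97.4, and Aldoa, Pkm and Tpi1 lay at 13.69 ± 0.42, 13.44 ± 0.13 and 12.97 ± 0.06. Of 31 genes of oxidative phosphorylation, 27 reached it, with Cox6a1 of cytochrome oxidase at 13.48 ± 0.43 and Atp5a1 of the ATP synthase at 13.05 ± 0.22. Of 18 ribosomal protein genes, 15 did, and of 22 proteasome genes, 19, led by the core subunits Psmb1 and Psma3 at 11.75 ± 0.16 and 11.71 ± 0.14. The inducible proteasome subunit Psmb9 lay at 5.79 ± 0.71. Chaperones reached the level in 19 of 24 cases, with Hsp90aa1 and Hspa8, which fold proteins in the cytosol, at 13.46 ± 0.18 and 12.40 ± 0.13. Antioxidant enzymes reached it in 15 of 22 cases, with the glutathione transferase Gstm1 at 13.37 ± 0.10 and Sod1, the cytosolic superoxide dismutase, at 11.26 ± 0.39. Nqo1, a target of the NRF2 pathway, stayed at 6.66 ± 0.66.

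Lysosomal genes reached the reference level in 13 of 17 cases, with Psap, the saposin precursor, at 13.37 ± 0.14, and the proteases Ctsd and Ctsb at 12.36 ± 0.43 and 12.18 ± 0.05. Ctsb differed by at most 1.09-fold between mice, while Ctsd read 11.88, 12.05, 12.83, 12.80 and 12.26 and was highest in mice 3 and 4. Of 16 genes of amyloid, tau and synuclein biology, 12 reached the level. Itm2c, a membrane protein that binds the amyloid precursor, lay at 13.08 ± 0.15. Mapt, the microtubule protein tau, read 12.21, 12.24, 13.40, 13.35 and 12.22, and Sncb, beta-synuclein, read 11.31, 11.69, 12.09, 12.33 and 10.89. Both were highest in mice 3 and 4, as was another Mapt set, while its dimmest set was highest in mouse 2. The amyloid-degrading protease Mme lay at 3.78 ± 0.49.

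Lists of glucocorticoid response, immediate early and clock genes had median SD percentiles of 52.1, 52.4 and 57.6. Their counts at the reference level stand beside 42.7% of all genes, and counts near that share do not show presence. Mt1 and Mt2, metallothioneins that glucocorticoids and metals induce, lay at 12.69 ± 0.22 and 12.58 ± 0.17, and the glucocorticoid targets Klf9 and Fkbp5 at 11.47 ± 0.25 and 10.31 ± 0.20. Of the 17 measured glucocorticoid response genes, 9 reached the reference level. Immediate early genes, which neurons switch on with activity, reached it in 11 of 17 cases, among them Jund at 12.88 ± 0.32, Bdnf, a growth factor for synapses, at 10.87 ± 0.19 and Egr1 at 10.13 ± 0.30. Dusp1, Nr4a1 and Nr4a2 were highest in mouse 5, with Dusp1 at 9.58, 9.80, 9.34, 9.66 and 10.43 in mice 1 to 5. Nr4a1 read 9.00, 9.55, 8.90, 9.18 and 9.94. Junb, another member, was lowest there, at 9.28, 9.42, 9.88, 10.16 and 8.88. Clock genes reached the level in 9 of 14 cases, led by Tef, an output transcription factor, at 11.18 ± 0.33. The labels used here give no time of day.

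Genes tied to ageing were mostly under the reference level, which 42.7% of all genes reached, except in the insulin and growth factor list. Of 16 genes of senescence and cell cycle arrest, 3 reached the reference level, led by the cyclin-dependent kinase inhibitor Cdkn2d at 9.99 ± 0.57, and the inflammatory signal Il6 lay at 3.93 ± 1.54. Of 19 interferon response genes, 2 did, Ifi27 at 10.73 ± 0.39 and Ifitm3 at 9.36 ± 0.61. Of 15 genes of antigen presentation, 5 did. Among them H2-K1, H2-D1 and B2m, which form class I molecules, lay at 10.72 ± 0.32, 10.09 ± 0.24 and 10.53 ± 0.51, while the class II chain H2-Aa lay at 5.41 ± 0.28. Of 19 genes of proliferation and neurogenesis, 6 did, with the stem cell factor Sox2 at 10.44 ± 0.10 and the progenitor factor Eomes at 3.92 ± 0.22. In the insulin and growth factor list 13 of 19 did, with Igf1 at 10.89 ± 0.21, Tsc2, a brake on mTOR, at 10.74 ± 0.24, Akt1 at 10.13 ± 0.23 and the insulin receptor substrate Irs1 under the level at 4.11 ± 1.20.

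The 5 mice were alike for most bright genes. The median SD over mice was 0.41 over all 12422 probe sets, or 1.32-fold, and 0.26, or 1.20-fold, over the 6211 brighter ones, those at or above the median mean signal of 7.78. It fell from 0.88 in the dimmest of 10 equal bins of mean signal to 0.21 in the brightest. An SD of at least 1 was found in 2004 probe sets, or 16.1%, but in 100 of the 6211 brighter ones, or 1.61%. The dim 6211 had a median SD of 0.74. By Dixon's criterion, which flags a lone extreme value, 1 mouse stood apart in 531 of 8251 genes, or 6.44%. The steadiest of the brighter genes was Golph3, a Golgi protein, which read 9.44, 9.45, 9.41, 9.43 and 9.43 in mice 1 to 5. Max, the partner of the MYC proteins, was next, with an SD of 0.022, followed by Cyba, a subunit of the NADPH oxidase, with 0.030. These are the smallest of 6211 SDs, each from 5 values.

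**Figure D2:**
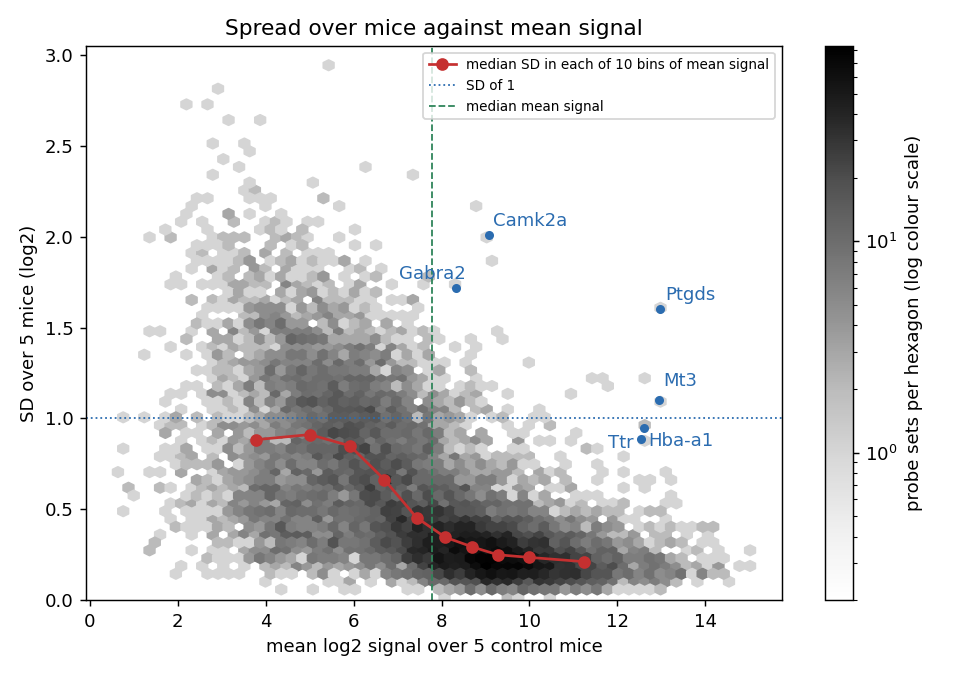
SD over the 5 control mice against mean log2 signal for all 12422 probe sets (grey hexagons, darker for more probe sets, log colour scale), with the median SD in each of 10 bins of mean signal (red). Named genes (blue) lie above the spread usual at their brightness. The red line falls from 0.88 to 0.21.

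The order of the mice was compared between separate probe sets of the same gene. In 688 genes with at least 2 of the brighter probe sets, the same mouse was highest in the brightest pair in 196, or 28.5%, against 20.2% for probe sets of different genes. The same mouse was lowest in 176, or 25.6%, also against 20.2%. Among 61 of these genes whose brighter set had an SD percentile of at least 90 for its brightness, the same mouse was highest in 22, or 36.1%, against 20.1%. Probe sets of one gene could also oppose each other. The brightest set of Gria1 read 12.01, 12.09, 11.76, 11.60 and 12.29 in mice 1 to 5 and was lowest in mice 3 and 4, while its other set read 10.62, 11.02, 11.94, 11.96 and 11.39 and was highest in the same mice. The lowest mouse of Junb, Grik5, Atp1b2, Chgb and Cox6c also differed between the brightest set and the others, which all lay under the reference level.

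The largest spread among the brighter probe sets belonged to Camk2a, the kinase subunit that stores recent calcium signals at excitatory synapses. Its brighter set read 8.69, 9.95, 10.67, 10.34 and 5.74 in mice 1 to 5 and its other set 8.58, 9.50, 10.51, 9.89 and 5.03. Mouse 5 was the lowest in both by more than 2 log2 units, and the range was 30.5-fold in the brighter set. Without mouse 5 its SD fell from 2.01 to 0.87. Nrgn, a calmodulin store of the same dendrites, read 10.51, 11.35, 11.48, 11.43 and 9.76 and was also lowest in mouse 5. Mt3, a zinc-binding metallothionein of brain, read 12.66, 12.95, 13.79, 14.07 and 11.27. Atp1b2, the astrocyte subunit of the sodium pump, read 8.92, 9.42, 9.41, 9.50 and 8.15. Mouse 5 was the lowest for both. Camk2b had its lowest value in mouse 5 too, but over a 1.42-fold range, and Gria1 and Gria2 had their highest or second highest value there.

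Several of the same low values in mouse 5 depended on the probe set. The probe set of Ywhag, a 14-3-3 adaptor protein, that was among the 20 of largest spread read 9.78, 9.96, 10.22, 10.19 and 6.79, and that of Nsmf, a messenger from synapse to nucleus, 9.62, 9.89, 10.60, 9.70 and 5.88. In the brightest sets of the same genes the SD was 0.21 and 0.30, and mouse 5 was not far from the rest, with Ywhag at 13.47, 13.48, 12.98, 13.23 and 13.23 and Nsmf at 9.89, 10.46, 9.92, 10.46 and 9.91. Vamp2 had a dimmer set that fell to 7.86 in mouse 5 with an SD of 1.29, against an SD of 0.20 in its brightest. Array controls differed in mouse 5 too. The ratio of the 3' to the 5' control probe sets of Gapdh, a measure of how complete the labelled RNA is, was 0.863, 0.940, 0.815, 0.825 and 1.53 in mice 1 to 5, highest in mouse 5. The mean of the 18S ribosomal RNA control sets was lowest there, at 7.89 against 8.87 to 10.48, as was that of the antisense control sets of Actb and Gapdh, at 6.00 against 7.35 to 7.63. The same ratio for the Actb control sets was not highest in mouse 5, at 1.22 there against 1.61 and 1.56 in mice 1 and 2. The part of these measures in the low values of mouse 5 was not tested.

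**Figure D3:**
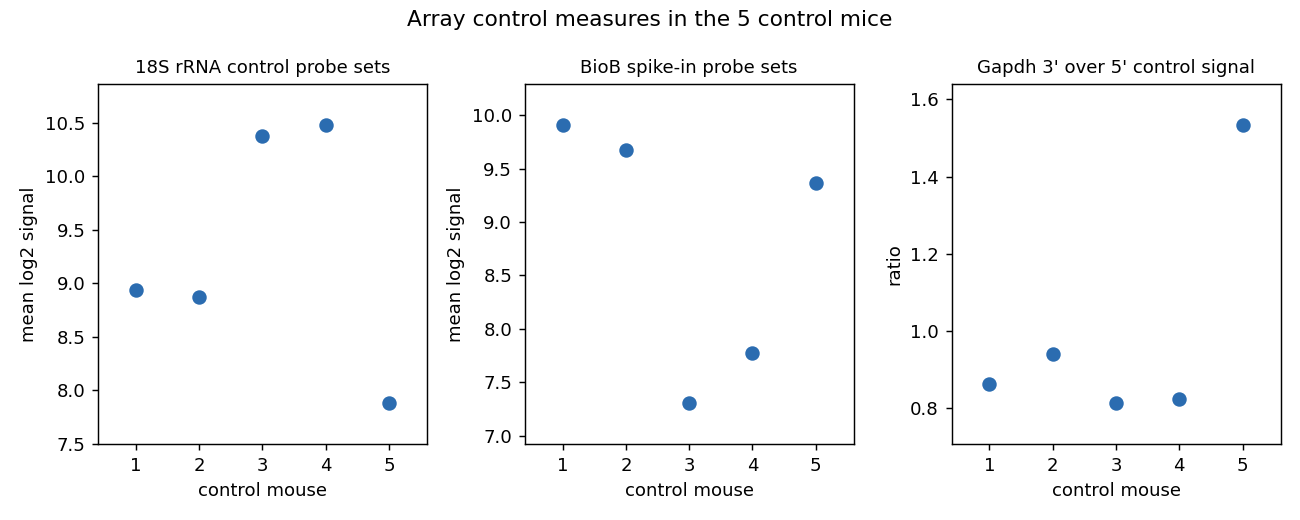
Control measures of the 5 arrays: the mean log2 signal of the 18S ribosomal RNA and of the BioB spike-in control probe sets, and the ratio of the 3' to the 5' Gapdh control signal, each as 1 point per control mouse. Mice 3 and 4 are highest for 18S at 10.37 and 10.48 and lowest for BioB at 7.31 and 7.77, and mouse 5 has the highest Gapdh ratio at 1.53.

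Mice 3 and 4 often lay together, at the top or at the bottom. They were the 2 highest in 1561 of 8251 genes, or 18.9%, where the next most frequent pair, mice 1 and 5, had 13.3%. They were the 2 lowest in 1409 genes, or 17.1%. Among the 4836 brighter genes they were the 2 lowest in 22.8% and the 2 highest in 19.0%. With the arrays shifted to the same median, they were the 2 highest in 15.2% of all genes, under the 15.7% of mice 1 and 5, and the 2 lowest in 21.1%. The order differed among the 100 brighter probe sets with an SD of at least 1, where mice 3 and 4 were the 2 highest in 38 and the 2 lowest in 14. Ptgds was among the 38: it read 11.75, 11.06, 14.64, 14.51 and 12.92, a 12-fold range, and all 3 of its probe sets ranked the same mice highest. Igfbp6, a carrier of insulin-like growth factors, read 6.99, 7.38, 8.95, 9.48 and 6.22. Lgals9, a sugar-binding immune regulator, read 7.26, 5.71, 9.20, 8.97 and 8.33. Both were again highest in mice 3 and 4, but a dimmer set of Lgals9 was lowest in mouse 3, at 5.45, 7.66, 5.25, 7.75 and 7.38. The array controls moved with this pair. The 18S control sets lay at 8.94, 8.87, 10.37, 10.48 and 7.89 in mice 1 to 5 and the BioB spike-in sets, bacterial control RNA added to each sample, at 9.90, 9.68, 7.31, 7.77 and 9.36. The median signals of the arrays lay between 7.79 and 7.92. The part of these differences in the results for mice 3 and 4 was not tested.

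Blood, vessel wall and meningeal genes were among those highest in mice 3 and 4. Hba-a1 read 12.02, 11.76, 13.67, 13.59 and 11.95 in mice 1 to 5. Mice 3 and 4 were the 2 highest, as in 18.9% of all genes. Alas2, the enzyme that starts heme synthesis in red cell precursors, read 7.32, 5.59, 9.07, 9.07 and 7.17, with the same 2 mice highest. Car1, a carbonic anhydrase of red cells, did not share this pair, at 5.08, 3.41, 5.41, 4.92 and 5.28. Slc4a1, their anion exchanger, did not either, at 7.13, 7.39, 6.94, 5.63 and 6.83. Alas2, Car1 and Slc4a1 all lay under the reference level, so 1 of the 4 measured red cell genes, Hba-a1, reached it. The promoters of Hba-a1 and Alas2 are shown because GATA1, the factor that drives red cell genes, binds sites with the core GATAA. The 250 bases before each start site, from RefSeq on GRCm38.p6, are written 5′ to 3′ with GATAA on either strand (TTATC on the reverse) in capitals. Hba-a1 is at chr11:32283422-32283671 and Alas2 at chrX:150547167-150547416, both on the plus strand.
Hba-a1: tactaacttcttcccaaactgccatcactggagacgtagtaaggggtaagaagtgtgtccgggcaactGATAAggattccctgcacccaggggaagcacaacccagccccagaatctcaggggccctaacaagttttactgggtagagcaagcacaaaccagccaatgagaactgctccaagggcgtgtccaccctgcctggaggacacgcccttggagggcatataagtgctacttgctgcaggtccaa
Alas2: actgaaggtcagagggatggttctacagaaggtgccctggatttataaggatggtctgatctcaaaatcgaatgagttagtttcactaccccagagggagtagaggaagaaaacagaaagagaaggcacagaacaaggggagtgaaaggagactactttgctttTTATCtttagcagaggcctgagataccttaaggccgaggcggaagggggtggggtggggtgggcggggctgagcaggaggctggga
Each window holds 1 match. Among 32851 promoter windows of this length in the table, 22.6% hold at least 1, so a match is common and says nothing about binding.

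In the vessel wall, 7 of 9 genes of pericytes and smooth muscle had mice 3 and 4 as the 2 highest, beside 18.9% of all genes. Acta2, smooth muscle actin, read 6.81, 8.37, 9.08, 9.19 and 7.31. Tagln, its partner transgelin, read 7.63, 7.90, 8.58, 8.98 and 7.56. Vtn, the pericyte protein vitronectin, read 8.30, 8.77, 10.03, 9.48 and 9.14. Mouse 1 or mouse 5 was the lowest in these 3. Among endothelial genes the count was 5 of 10, with Eng at 8.95, 9.92, 10.30, 10.52 and 9.98 and Slc2a1 at 8.77, 8.56, 9.43, 9.83 and 8.91. In the meningeal list it was 5 of 12, and mouse 3 was the highest in 8 of 12, beside 25% of all genes. Mgp, a matrix protein, read 7.97, 7.42, 9.36, 8.74 and 8.60, and Dcn, a collagen-binding protein that CA1 lists also name, 10.17, 9.40, 11.00, 10.69 and 10.50. Microglial genes had the count 7 of 16 and genes of antigen presentation 8 of 15. Many members of these lists were under the reference level, and genes of a list share cells, so they are not independent counts. The lists were chosen with earlier results of these data known, and no list count here or in the paragraphs below is a test.

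Some neuronal and synaptic genes were among those low in mice 3 and 4, which were the 2 lowest in 17.1% of all genes. Their lists were divided. The same pair was the 2 highest in 5 of 14 general neuronal genes and 5 of 15 genes of vesicles and their fusion. It was so in 0 of 15 interneuron genes and 0 of 11 glutamate receptor genes, beside 18.9% of all genes. The pair as the 2 lowest was not counted by list. Mouse 3 was the lowest in 6 general neuronal, 5 vesicle, 8 interneuron and 3 glutamate receptor genes, beside 20.4% of all genes. For mouse 4 these counts were 0, 2, 3 and 4, also beside 20.4%. Snap25, Cck, Sst, Ppp3ca, Gria3 and Ryr2 are given above. The brightest regular probe set of Actb, cytoplasmic actin, read 11.46, 11.31, 9.48, 10.01 and 9.49 and was lowest in mice 3 and 5. The ratio of the 3' to the 5' control sets of Actb was 1.61, 1.56, 1.05, 1.10 and 1.22. Gabra2, a GABA-A receptor subunit, read 10.18, 9.52, 7.60, 5.80 and 8.53, a 20.8-fold range, with mice 3 and 4 the lowest. Chgb, a granin of dense-core vesicles, read 13.25, 13.02, 12.36, 12.34 and 12.62, and Car2, carbonic anhydrase of oligodendrocytes, 12.43, 12.55, 11.99, 11.98 and 12.68. In both, mice 3 and 4 were the 2 lowest.

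**Figure D4:**
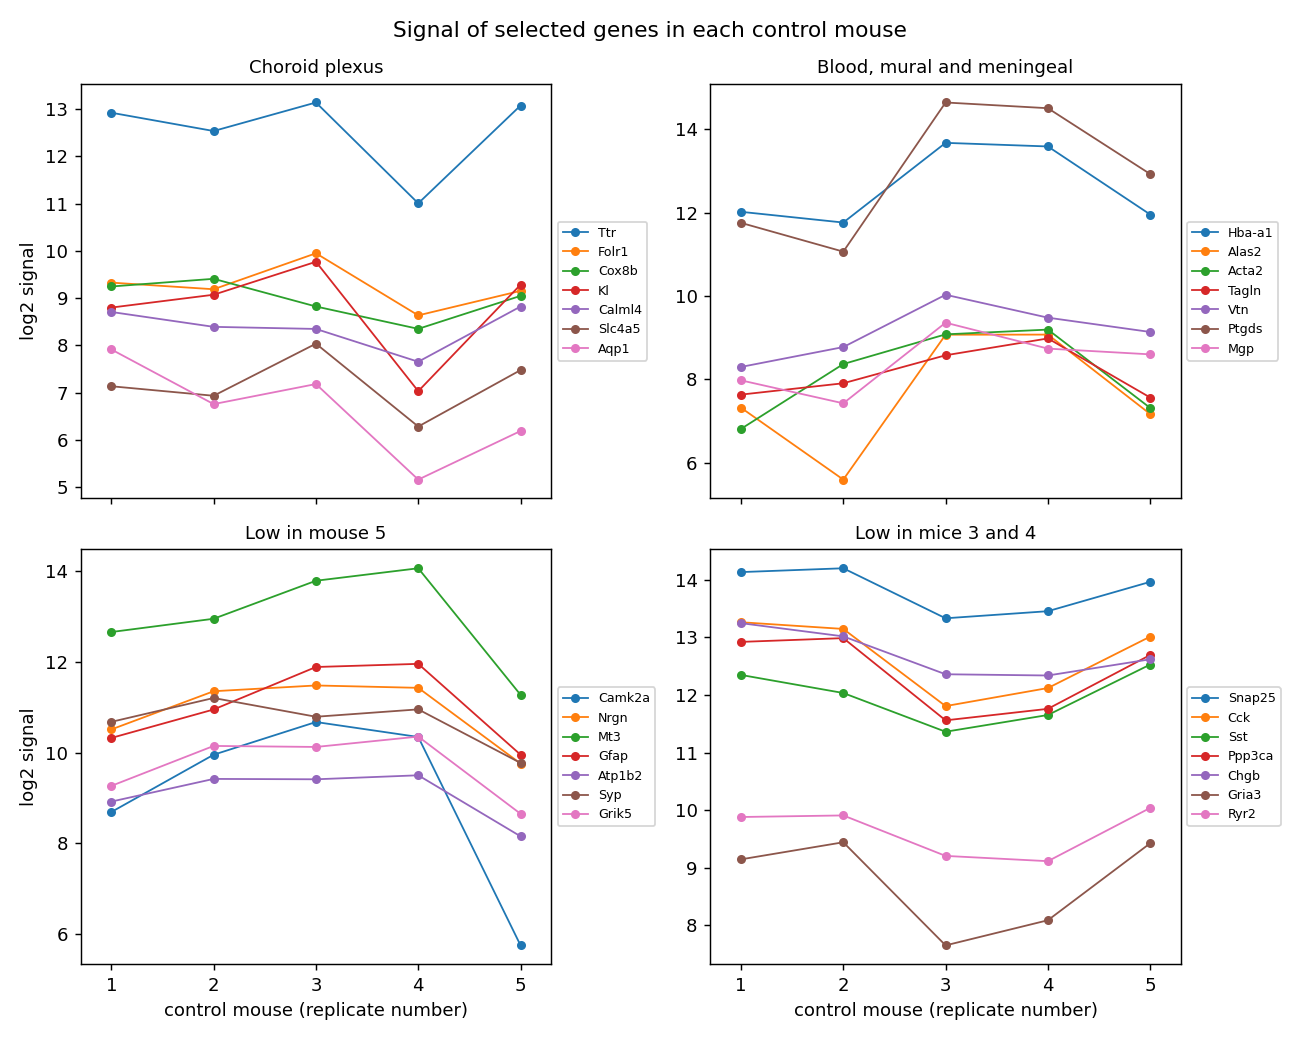
Log2 signal of selected genes in each of the 5 control mice (1 point per mouse, lines join the values of a gene and imply no order of the mice). The panels show choroid plexus genes, blood, mural and meningeal genes, genes low in mouse 5 and genes low in mice 3 and 4. Ttr falls to 11.00 in mouse 4, Ptgds reaches 14.64 in mouse 3 and Camk2a falls to 5.74 in mouse 5.

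Choroid plexus genes, of the tissue that makes cerebrospinal fluid, were mostly lowest in mouse 4. Ttr read 12.92, 12.53, 13.14, 11.00 and 13.07 in mice 1 to 5, so mouse 4 lay under the lowest of the others by more than 1 log2 unit, and it was the one gene of the list in which Dixon's criterion set mouse 4 apart. Kl, the ageing-related protein klotho, read 8.80, 9.07, 9.77, 7.03 and 9.28, with mouse 4 again the lowest. Folr1, which carries folate into the fluid, read 9.33, 9.19, 9.95, 8.63 and 9.15, and Calml4 read 8.71, 8.39, 8.35, 7.65 and 8.82. Mouse 4 was the lowest in 7 of the 9 measured choroid plexus genes, beside 20.4% of all genes, and the list's median deviation in that mouse was -0.73 log2 units. The exceptions were Igf2, which meninges make too, and Cldn2, a tight junction protein of leaky epithelia. Igf2 read 11.13, 11.25, 12.38, 11.42 and 11.32 and Cldn2 read 5.78, 5.31, 5.93, 5.91 and 5.52. Mouse 3, which shared the high signals of mouse 4 for blood and vessel genes, was the highest in 6 of the 9, or in 4 with the arrays shifted to the same median. Ependymal Foxj1, a master factor of cilia in the ventricle lining, read 9.26, 8.77, 9.45, 9.36 and 9.40 and showed no low value in mouse 4.

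Interferon response genes were lowest in mouse 1. This held for 15 of 19 genes, beside 19.9% of all genes, with a median deviation of -0.92. Ifitm3, a membrane protein that blocks virus entry, read 8.58, 8.99, 10.20, 9.58 and 9.45. Irf9, part of the factor that interferon activates, read 7.64, 8.64, 8.70, 8.93 and 8.92. The list has 2 genes at or above the reference level, so most of this count rests on dim signals. The bright class I genes had smaller differences: H2-K1 read 10.33, 10.52, 11.15, 10.90 and 10.72 and H2-D1 read 9.83, 9.84, 10.31, 10.30 and 10.19. B2m, their shared light chain, read 10.76, 10.24, 10.22, 10.10 and 11.33, highest in mouse 5.

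Oxidative phosphorylation genes had the opposite pair on top. Mice 1 and 5 were the 2 highest in 17 of 31 genes, beside 13.3% of all genes, and mouse 1 alone was the highest in 16, beside 18.4%. Cox6a1 read 14.07, 13.59, 13.11, 13.01 and 13.60. Cox6c, another subunit of cytochrome oxidase, read 13.58, 13.08, 12.56, 12.58 and 13.02. Uqcrh, of the cytochrome bc1 complex, read 11.99, 11.31, 11.08, 11.06 and 11.85. Mouse 1 was the highest and mice 3 and 4 were the 2 lowest in all 3. The BioB spike-in sets given above were lowest in mice 3 and 4 too, and their part in these values was not tested. The ranges were 2.08-fold, 2.03-fold and 1.90-fold. Ndufv1, a core subunit of the first complex, did not follow, at 12.69, 12.77, 12.76, 12.92 and 12.73. Mouse 1 was also the highest in 10 of 18 ribosomal protein genes and in 9 of 22 proteasome genes, and mouse 2 was the lowest in 11 and 10 of them, beside 17.3% of all genes. Lysosomal genes were highest in mouse 5 in 9 of 17 cases, beside 18.1%.

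The lists whose median deviation differed least between the mice included several of neurons, glia and metabolism. A median near the mean does not make each member even: the general neuronal list held Camk2a, with an SD of 2.01, and had a median SD percentile of 63.9. The median deviations of antioxidant genes stayed between -0.06 and 0.02, those of the proliferation and neurogenesis list between -0.01 and 0.10, and those of glycolysis genes between -0.07 and 0.09. General neuronal markers stayed between -0.07 and 0.13, astrocyte markers between -0.06 and 0.13, and myelin genes between -0.10 and 0.11. The deviations ran from -0.50 to 0.61 for pericytes and smooth muscle and from -0.36 to 0.66 for meninges. Other lists also ran widely, from -0.38 to 0.53 for T and NK cells, from -0.19 to 0.65 for the 5 CA1 genes and from -0.23 to 0.49 for the dentate gyrus. These deviations were not corrected for brightness, and dim genes, such as those of T and NK cells, spread more. The range was 0.59 for complement and phagocytosis and 0.55 for GABAergic interneurons. The medians of all genes stayed between -0.01 and 0.04.

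**Figure D5:**
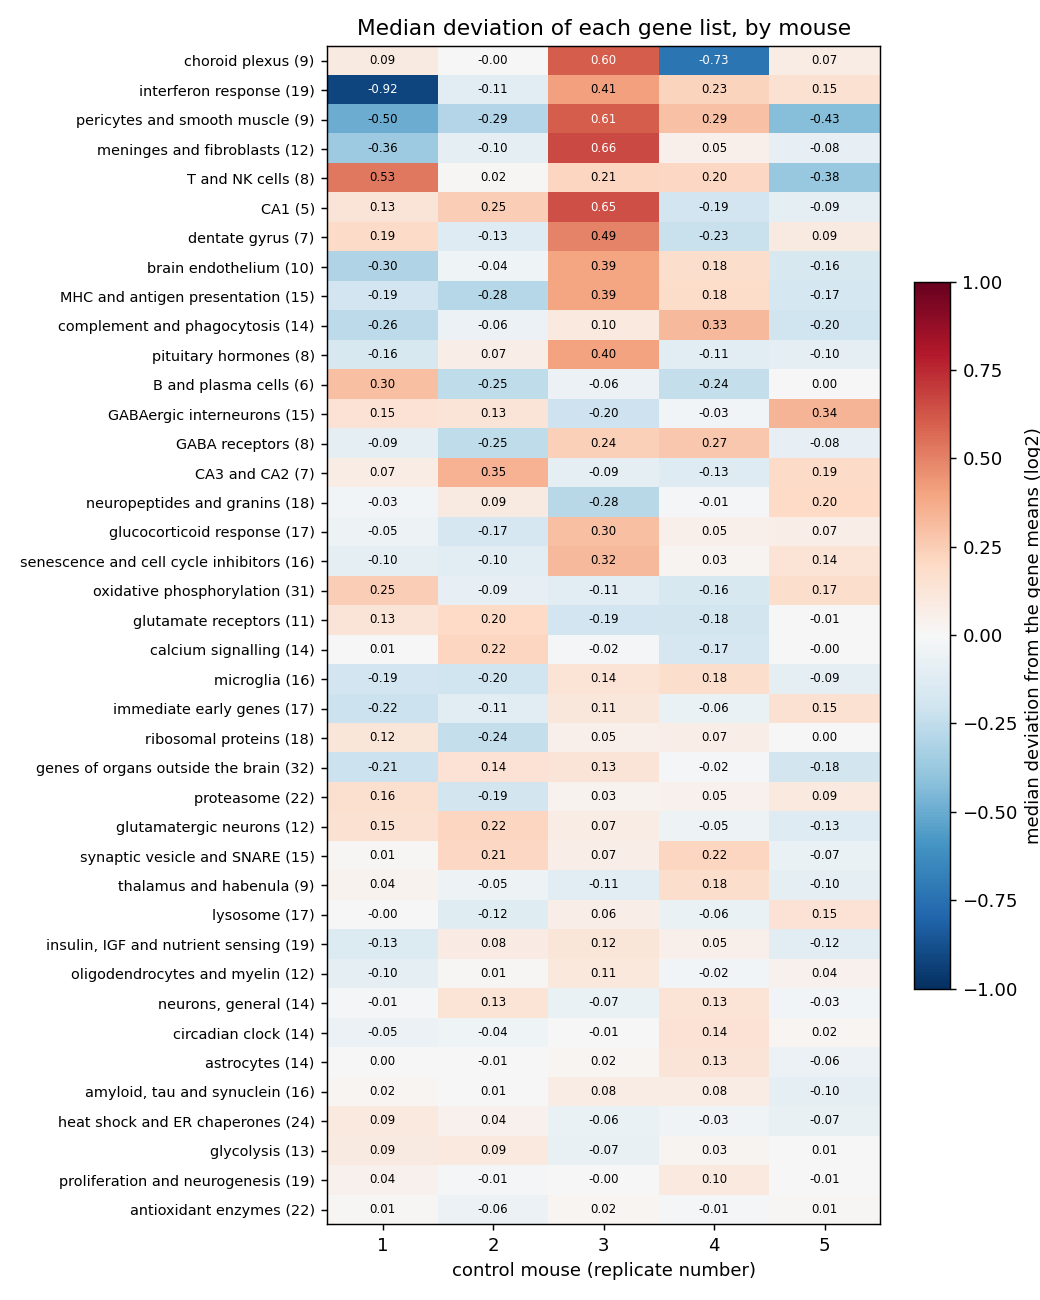
Median deviation of each gene list (rows, number of measured genes in brackets, lists of at least 5) from the genes' means over the 5 control mice, by mouse (columns), in log2 units. Red is above and blue below the mean. The choroid plexus list reads -0.73 in mouse 4 and the interferon list -0.92 in mouse 1, while the medians of the antioxidant list stay within 0.08 of each other.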

How the data were processed

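The deposited values are MAS5 intensities, 1 for each of 12488 probe sets on each array of an Affymetrix mouse design, and they are linear, not logged. That the authors used MAS5 is recorded in the submitters' processing notes, without a version or settings. MAS5 combines the probes of a set array by array and then scales each array as a whole, so a level is relative to its own array. Across each control array the deposited intensities average 500 once the lowest and highest 2% are left out.

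The 5 arrays labelled as control diet were used and the 5 arrays of the other diet were not analysed here. The 66 control probe sets were kept out of the 12422 described and used as array measures. Values under 1 were set to 1 (27 of 62110) and log2 was taken. GEO's platform annotation gave 1 symbol to 10833 probe sets, several to 396 and none to 1193, and 10817 symbols of the first group were matched in the RefSeq gene table. A gene was represented by its brightest probe set. The SD percentile of a probe set is its rank in its own bin of 10 bins of mean signal.

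Genes are named by rule: members of the marker lists, of each longer pathway list the 5 brightest, the 3 of largest SD at or above the reference level and the dimmest, and over all probe sets the 15 brightest and, among the brighter ones, the 20 of largest and the 10 of smallest SD. The rule gave 400 genes. The members and lists were chosen with earlier results of these data known. A mouse counts as apart by Dixon's criterion for 5 values. The computation of SDs and of mice apart was checked on simulated arrays of known spread. Other scalings, floors, filters, probe set choices and the omission of each mouse were tried. Python 3.11.15, pandas 2.3.3, numpy 2.4.6, scipy 1.17.1 and matplotlib 3.10.9 were used. Promoter windows came from RefSeq on GRCm38.p6. No genome was used, and no coordinates of probe sets are given because no build is named for the table in the sources used here.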

Additional observations from a re-analysis of the deposited data

Results flagged for a closer look

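A single mouse stood apart from the other 4, by Dixon's criterion for 5 values, in 11 of the 166 genes named here. Over all genes the share was 6.44%, or 531 of 8251, and chance alone gives about 1 in 20, so such genes are to be looked for singly rather than counted. In the choroid plexus the carrier Ttr was low in mouse 4 at 11.00, and the ventricle lining factor Foxj1 was low in mouse 2 at 8.77. Igf2, which meninges and choroid plexus make, was high in mouse 3 at 12.38. The synaptic genes Cplx1 and Gabbr1 were low in mouse 5, at 10.91 and 11.64. The interneuron peptide Vip and the granule cell factor Prox1 were low in mouse 3, at 5.11 and 5.67, both dim. The interferon factor Irf9 and the mTOR brake Tsc2 were low in mouse 1, at 7.64 and 10.31. The red cell enzyme Car1 and the progenitor factor Eomes were low in mouse 2, at 3.41 and 3.54, far under the reference level.

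Of 8 array measures, 2 had mouse 5 apart. The Gapdh ratio of 3' to 5' control signal was 1.53 there and the mean of the antisense control sets was 6.00. None of the 46 gene lists had a mouse apart in its median deviation.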

How the results depend on the processing

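No paired analysis was possible because the 5 control mice form 1 group and no result comes from a test. The median SD of all probe sets, 0.41, became 0.37 with values under 16 set to 16, 0.34 with 16 added before the log, 0.28 over probe sets from the 40th percentile of mean signal up and 0.39 over plain probe sets, and lay between 0.37 and 0.40 without 1 mouse. The 2004 probe sets with an SD of at least 1 became 498 with 16 added and 224 over probe sets from the 40th percentile up, and the 846 with 1 mouse apart became 428 under that filter, which leaves fewer probe sets. The share of genes whose probe sets had the same highest mouse, 28.5%, lay between 33.4% and 36.2% without 1 mouse, where different genes gave 24.9% to 26.3%, since 4 mice remain. The count of listed genes at the reference level stayed between 274 and 328 over all alternatives, against 313. Of the named genes' SDs, 74 of 830 moved on leaving out a mouse, as did 87 of 230 median SD percentiles of lists. Taking the mean of all probe sets moved the level of 50 of the 166 named genes and the median signal percentile of 28 of 46 lists. Genes that have a dim second set were among those moved, such as Apoe, from 14.39 ± 0.16 to 9.88. The counts over lists with mice 3 and 4 highest, mouse 4 lowest or mouse 1 lowest were recomputed after seeing the data under quantile normalization, equal medians, plain probe sets and mean probe sets. The pericyte and smooth muscle count stayed at 7 of 9 in 3 of these 4 and was 6 of 8 over plain probe sets, the choroid plexus count of mouse 4 stayed at 7 of 9 and the interferon count of mouse 1 lay between 12 and 15. The counts of mice 3 and 4 as the 2 lowest were also added after seeing the data. With equal array medians their share among the 4836 brighter genes went from 22.8% to 28.3%, and that of the same pair as the 2 highest from 19.0% to 14.2%.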
